A study of Homo sapiens with 12 samples.

Results

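Inhibitors of apoptosis, the proteins with BIR domains that hold back caspases or guide cell division, were described together with DIABLO, the mitochondrial protein that antagonises them. The genes were BIRC2, BIRC3, BIRC5, BIRC6, XIAP and DIABLO, and every probe that the array annotation pairs with 1 of these 6 genes was taken. This gave 9 probes of 5 genes among 47311 probes with values. The annotation used here pairs no probe with BIRC3, which was not analysed here. All 9 passed the filter on dim probes (above background on each array of some group) and so belonged to the 21600 probes tested.

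The arrays measured total RNA of TPC1, BCPAP and K1 cells, 3 established lines of papillary thyroid carcinoma. Each line was treated with 10 µM Y15 for 24 h or left untreated, with 2 arrays in each of the 6 groups and 12 in all. Y15 is a small molecule that inhibits the autophosphorylation of FAK, the focal adhesion kinase. TPC1 carries a RET/PTC rearrangement, BCPAP carries BRAF and p53 mutations, and K1 carries BRAF, PIK3CA and p53 mutations. Each is a line kept in culture, the labels name no vehicle for the untreated cells, and nothing in the labels says that the duplicates came from separate cultures. The p-values therefore measure the spread between these samples, which may be technical.

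Values are log2 signals after quantile normalization, which gives every array the same distribution of signal, and they were compared within a probe only. A probe was above background on an array at a detection p under 0.05. Changes are Y15 minus untreated, from 1 limma fit over the 12 arrays, and a probe was called higher or lower at a Benjamini-Hochberg adjusted p under 0.05 over the 21600 probes. Between 33.8% and 43.1% of the probes were above background on an array, and the mean signal ran between 215.4 and 393. Of the thyroid markers, PAX8 and FOXE1 were above background in all 6 groups and NKX2-1 in BCPAP alone, while the other 3 annotated markers were above it on both arrays of no group. Of the epithelial markers KRT8 and KRT18 were above background in all 6 groups, and KRT7 in all but K1 with Y15. KRT19 was above it in K1 alone, EPCAM in BCPAP alone, and CDH1 on both arrays of no group. Of the fibroblast markers LUM was above background in TPC1, DCN in BCPAP, and COL1A1 in BCPAP and in untreated TPC1 and K1. PDGFRA was above it on both arrays of no group. Of the leukocyte markers CD68 alone, and of the 3 endothelial markers none, were above background on both arrays of any group. With Y15 some of these markers moved. PAX8 was called lower in TPC1, BCPAP and K1 (-0.80, -0.35 and -0.48), FOXE1 in TPC1 (-0.64), NKX2-1 in BCPAP (-0.35) and KRT7 in TPC1 (-0.49). CD68 was called higher in TPC1 (0.56) and BCPAP (0.85), and of the fibroblast markers LUM was called lower in TPC1 (-1.07) and COL1A1 in BCPAP (-0.56). With median centring, applied to the markers after seeing the data, the calls of PAX8 in BCPAP (0.19) and K1 (-0.75), NKX2-1 in BCPAP (0.14), CD68 in TPC1 (0.18) and COL1A1 in BCPAP (-0.25) were lost, and with neqc those of PAX8 in BCPAP (-0.41) and K1 (-0.50). The part of these markers in the results on the members was not tested. The duplicates of K1 with Y15 were less alike (r = 0.982 across probes, which are not independent replicates) than those of any other group (r of at least 0.993), and results in K1 that hang on 1 of them are given with and without it.

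Caspases are the proteases that carry out apoptosis. XIAP binds and inhibits caspases directly, whereas BIRC2 (cIAP1) is a ubiquitin ligase of TNF receptor complexes that restrains non-canonical NF-κB signalling. BIRC6 is a very large ubiquitin-conjugating enzyme. Survivin, the product of BIRC5, is the mitotic member of the family. It belongs to the chromosomal passenger complex with Aurora B, INCENP and borealin, and its mRNA is made mainly in G2 and mitosis. DIABLO is released from mitochondria and binds BIR domains, which frees caspases.

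Survivin was the member called lower with Y15, in TPC1. After quantile normalization its signal was also lower on both BCPAP arrays and on 1 of the K1 arrays. On the brighter of its probes (ILMN_2349459, here probe 1) the signal in TPC1 was 8.26 and 8.15 with Y15, against 9.66 and 9.68 untreated. Both Y15 arrays thus lay more than 1 log2 unit below both untreated arrays. The change was -1.47 on the log2 scale (standard error 0.360, 95% confidence interval -2.26 to -0.68), a 2.76-fold lower signal, and was called (adjusted p = 0.0108 from limma). In BCPAP the signal was 9.26 and 9.28 with Y15, against 10.28 and 10.38 untreated. The groups did not overlap, the change was -1.06 (interval -1.85 to -0.27), and it was not called (adjusted p = 0.0772). Before normalization they did overlap, at 628.1 and 733.7 with Y15 against 1158.7 and 653.3 untreated. The 653.3 came from untreated replicate 2, the array with the lowest mean signal (215.4), so the BCPAP separation depends on the scaling of that array. In K1 the signal was 8.74 and 10.42 with Y15, against 10.34 and 10.42 untreated. There replicate 1 stood at -1.64 relative to the untreated mean and replicate 2 at 0.04, so the groups overlapped. The K1 change was -0.80 (interval -1.59 to -0.01, adjusted p = 0.219). Among the 21600 probes, ordered from the largest fall, BIRC5 probe 1 stood at place 76 in TPC1, 44 in BCPAP and 150 in K1. The RNA came from whole cultures, in which fewer cells in mitosis and less survivin RNA per cell cannot be told apart.

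**Figure D1:**
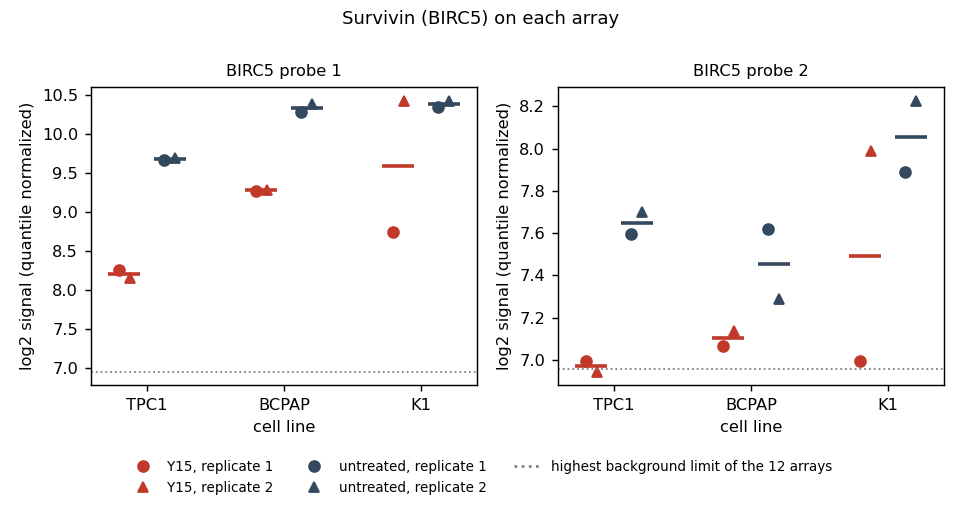
Survivin (BIRC5) on each of the 12 arrays. The vertical axis is the log2 signal of probe 1 (left panel) and probe 2 (right panel), the horizontal axis the cell line, with Y15 arrays in red to the left of untreated arrays in dark blue; circles are replicate 1, triangles replicate 2, and short lines group means. The dotted line is the lowest signal of a probe above background on the array where that limit was highest. On probe 1 both Y15 arrays lay below both untreated arrays in TPC1 and BCPAP, and K1 replicate 2 with Y15, at 10.42, lay among the untreated arrays.

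The split of the K1 duplicates entered the error of this probe in all lines, because the fit shares 1 estimate of the spread. The standard deviation of the K1 arrays with Y15 was 1.18, and without either of them the BCPAP change of BIRC5 probe 1, still -1.06, was called (adjusted p = 1.16e-07). Without K1 replicate 2 with Y15 the K1 change was -1.64 (adjusted p = 9.29e-09), and without replicate 1 it was 0.04 (adjusted p = 0.899). The TPC1 call was lost on leaving out any of the 4 TPC1 arrays, with changes between -1.52 and -1.41 and adjusted p from 0.0565 without replicate 1 with Y15 to 0.0765 without replicate 2 with Y15. With only the 8 arrays of TPC1 and BCPAP, a choice made after seeing the data, the fall was called in both lines (adjusted p = 1.09e-08 in TPC1 and 7.52e-07 in BCPAP). A difference of the BIRC5 change between lines was not called over the 12 arrays (adjusted p = 0.632, F test of limma). It was called without K1 replicate 1 with Y15 (adjusted p = 1.02e-06) and without K1 replicate 2 with Y15 (adjusted p = 0.00336). The TPC1 change minus the BCPAP change was -0.41 with an interval of -1.52 to 0.71. With median centring in place of quantile normalization the BCPAP change was -0.51 (adjusted p = 0.536), or -0.69 relative to the median of all tested probes.

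The dimmer survivin probe (ILMN_1803124, here probe 2) gave smaller differences. In TPC1 it had 6.99 and 6.94 with Y15, against 7.60 and 7.70 untreated. In BCPAP it had 7.07 and 7.14 with Y15, against 7.62 and 7.29 untreated. In K1 it had 6.99 and 7.99 with Y15, against 7.89 and 8.23 untreated. The same K1 array was low on both survivin probes, at -1.06 relative to the untreated mean on probe 2, while replicate 2 stood at -0.069. The TPC1 change of -0.68 (adjusted p = 0.0607), the BCPAP change of -0.35 (0.38) and the K1 change of -0.57 (0.191) were not called. Without either K1 array with Y15 the TPC1 and BCPAP changes of probe 2 were called (adjusted p = 0.000225 and 0.0357), and without K1 replicate 2 with Y15 so was a K1 change of -1.06 (adjusted p = 5.05e-05). With Y15 this probe lay 0.13 and 0.07 above the lowest signal of a probe above background on the same TPC1 arrays, so its difference there is bounded by the background. With neqc, which subtracts the background, its TPC1 change was -1.67 (adjusted p = 0.0444).

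The cIAP1 gene BIRC2 moved the other way in TPC1. Its brighter probe (ILMN_2182704, probe 1) had 10.23 and 10.23 with Y15, against 9.45 and 9.53 untreated. The TPC1 arrays did not overlap, and the log2 change of BIRC2 was 0.74 (standard error 0.107), a rise of 1.67-fold (limma, adjusted p = 0.000397). The other probe (ILMN_1768194, probe 2) had 8.85 and 8.90 with Y15, against 8.30 and 8.39 untreated in TPC1, a called change of 0.53 (adjusted p = 0.00908). That call was lost without untreated replicate 1 of TPC1 (0.48, adjusted p = 0.0761) or replicate 2 with Y15 (0.50, adjusted p = 0.0679). Both TPC1 calls of BIRC2 were also lost with median centring in place of quantile normalization, with changes of 0.28 (adjusted p = 0.521) and 0.11 (adjusted p = 0.759). Under median centring the median of all tested probes itself shifted, to -0.161 (TPC1), 0.181 (BCPAP) and -0.0795 (K1), and relative to that median BIRC2 was 0.44 and 0.27 higher in TPC1.

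In BCPAP, BIRC2 probe 1 had 9.40 and 9.50 with Y15, against 9.26 and 9.12 untreated. This difference of 0.26 was not called (adjusted p = 0.145), although without either K1 array with Y15 it was (adjusted p = 0.0416). In K1 the probe had 10.00 and 10.31 with Y15, against 10.16 and 9.94 untreated. The K1 groups overlapped, with a change of 0.11 (adjusted p = 0.647). On probe 2 the changes were 0.10 in BCPAP and -0.04 in K1, and the groups overlapped in both lines. BIRC2 probe 1 was the single member probe whose Y15 change differed between the lines (adjusted p = 0.0311, F test of limma), in a test that called 14.8% of all probes. Its change in TPC1 exceeded that in K1 by 0.64 (adjusted p = 0.0295, a contrast called for 6.17% of all probes) and that in BCPAP by 0.49 (adjusted p = 0.0533, 14.3% called). The F test missed the threshold without any of 7 single arrays, which were the 4 TPC1 arrays, untreated K1 replicate 1 and each BCPAP array with Y15 (adjusted p from 0.0531 to 0.131), and for probe 2 it missed it over all arrays (adjusted p = 0.0961).

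The start of BIRC2 is shown because this gene carried the rise of a family member in TPC1. RefSeq promoter windows (GRCh38.p14) of 300 bases were matched for BIRC2, BIRC6, XIAP and DIABLO, and none for BIRC5. They were searched on both strands for TGACGTCA, the full cAMP response element, for CCAAT, and for TTTGAA or TTCGAA, the CHR element known from promoters of G2 and mitosis genes. TGACGTCA stood in the first of the 2 BIRC2 windows. It was found in windows of 2.25% of all genes and in 1.85% of all 35116 promoter windows. The first BIRC2 window lies on the plus strand at chr11:102346964-102347263, with TGACGTCA in capitals from base -7 to base 1 relative to the annotated start. The CHR letters were in no window of these 4 genes and CCAAT was in windows of DIABLO alone. These are matches of letters in a window and not sites of binding.
BIRC2: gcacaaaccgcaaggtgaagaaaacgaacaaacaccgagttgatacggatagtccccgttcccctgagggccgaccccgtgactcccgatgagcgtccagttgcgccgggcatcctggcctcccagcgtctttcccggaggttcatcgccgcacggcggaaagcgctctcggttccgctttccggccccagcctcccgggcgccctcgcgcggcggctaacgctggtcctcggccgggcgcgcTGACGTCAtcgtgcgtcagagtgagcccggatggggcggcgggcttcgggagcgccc

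DIABLO was higher with Y15 on each of its 3 probes in each line under quantile normalization, while with median centring probe 1 turned to -0.11 in TPC1 and -0.056 in K1. The TPC1 calls of probes 2 and 3 and the K1 call of probe 2 were lost with it too, at 0.03 (adjusted p = 0.949), 0.22 (adjusted p = 0.206) and 0.10 (adjusted p = 0.903). Relative to the median of all tested probes, which itself shifted, probe 1 was still 0.050 higher in TPC1 and 0.023 higher in K1. In BCPAP median centring gave larger changes, 0.84, 0.72 and 0.72 on probes 1 to 3 (limma, adjusted p = 0.0436, 0.0771 and 0.0103). The median of all tested probes was itself 0.181 there, and relative to it the probes were 0.66, 0.54 and 0.54 higher. Probe 1 (ILMN_2310589) had 10.84 and 10.71 with Y15, against 10.48 and 10.37 untreated in TPC1. In BCPAP it had 11.05 and 11.04 with Y15, against 10.84 and 10.80 untreated. In K1 it had 10.72 and 10.57 with Y15, against 10.46 and 10.44 untreated. No line overlapped, and the TPC1 change of 0.35 was called (adjusted p = 0.0058, and 0.0507 with neqc), while the BCPAP change of 0.23 (0.0764) and the K1 change of 0.19 (0.162) were not. Both K1 arrays with Y15 were above both untreated ones, replicate 1 by 0.27 and replicate 2 by 0.12 over the untreated mean, where survivin was lower on replicate 1 alone.

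Probe 2 of DIABLO (ILMN_2332990) had 8.94 and 9.04 with Y15, against 8.47 and 8.60 untreated in TPC1. In BCPAP it had 9.51 and 9.41 with Y15, against 9.41 and 9.26 untreated. In K1 it had 9.06 and 9.03 with Y15, against 8.80 and 8.66 untreated. Here the rise was called in TPC1 (0.46, adjusted p = 0.00209) and in K1 (0.32, adjusted p = 0.0451), and the BCPAP difference of 0.13 was not (adjusted p = 0.359). The K1 call was lost without any of 9 of the 12 arrays (adjusted p from 0.0627 without either BCPAP array with Y15 to 0.282 without untreated K1 replicate 2), the other 3 being both untreated BCPAP arrays and K1 replicate 2 with Y15. Probe 3 (ILMN_1665335) had 7.56 and 7.65 with Y15, against 7.21 and 7.14 untreated in TPC1. In BCPAP it had 8.22 and 8.05 with Y15, against 7.71 and 7.77 untreated. In K1 it had 7.94 and 7.79 with Y15, against 7.65 and 7.54 untreated. On this probe the rise was called in TPC1 (0.43, adjusted p = 0.00323) and BCPAP (0.39, adjusted p = 0.012) and the K1 difference of 0.28 was not (adjusted p = 0.0772). On the untreated TPC1 arrays probe 3 lay 0.36 and 0.28 above the lowest signal of a probe above background, and with neqc its TPC1 change was 0.96 and its BCPAP change 0.63 (adjusted p = 0.00185 and 0.0315). Its BCPAP call was lost without untreated replicate 1 (0.37, adjusted p = 0.0517) or replicate 1 with Y15 (0.31, adjusted p = 0.12), and the TPC1 call of probe 1 without untreated replicate 2 (0.30, adjusted p = 0.0672) or replicate 1 with Y15 (0.29, adjusted p = 0.0621). Without K1 replicate 2 with Y15, probes 1 and 3 were called in K1 (0.27, adjusted p = 0.0449, and 0.35, adjusted p = 0.017), and without either K1 array with Y15, probe 1 was called in BCPAP (adjusted p = 0.0359). A difference between lines was called for none of the DIABLO probes (adjusted p = 0.549, 0.18 and 0.627, F test).

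**Figure D2:**
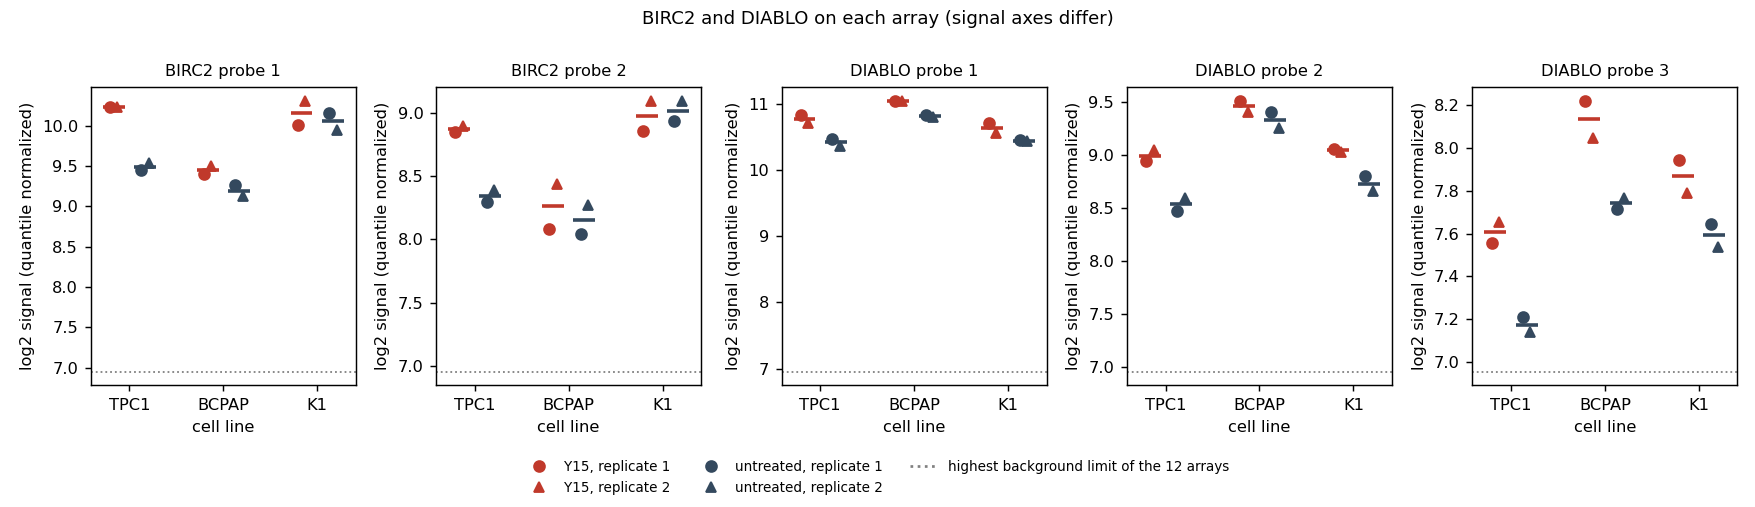
BIRC2 and DIABLO on each of the 12 arrays. The vertical axes are log2 signals, drawn separately for each probe, and the horizontal axes the cell lines, with Y15 arrays in red to the left of untreated arrays in dark blue; circles are replicate 1, triangles replicate 2, short lines group means, and the dotted line the lowest signal of a probe above background on the array where that limit was highest. All 3 DIABLO probes lay higher with Y15 in every line, by 0.13 to 0.46, and the BIRC2 groups were farthest apart in TPC1. With median centring DIABLO probe 1 turned below 0 in TPC1 and K1 but stayed above the median of all tested probes.

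XIAP and BIRC6 were measured close to background and no change was called. The XIAP probe (ILMN_1815361) ran from 7.06 to 7.27 over the 6 Y15 arrays, with a median of 7.11, and from 6.90 to 7.18 over the 6 untreated arrays, with a median of 7.13. Its changes were 0.03, 0.07 and 0.04 in TPC1, BCPAP and K1, with intervals between -0.18 and 0.29 over the lines. The BIRC6 probe (ILMN_1801605) ran from 7.05 to 7.95 over the Y15 arrays, with a median of 7.51, and from 6.90 to 7.83 over the untreated arrays, with a median of 7.47. Its changes were 0.08, 0.02 and 0.04 in TPC1, BCPAP and K1, with intervals between -0.24 and 0.33. In each line the Y15 and untreated arrays overlapped for both genes. Neither probe was above background on untreated BCPAP replicate 2, the dimmest of the arrays. The intervals leave out a 2-fold change of signal, but a change of RNA is understated by a probe so near the background.

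In TPC1, 6 of the 9 member probes were called, 5 of them higher (the BIRC2 and DIABLO probes) and 1 lower (BIRC5 probe 1). The same test called 25.7% of all 21600 probes there, 12.4% upward and 13.2% downward. In BCPAP 1 of the 9 was called, DIABLO probe 3 upward, where 13.4% of all probes were called and 7.4% upward. In K1 1 of the 9 was called, DIABLO probe 2 upward, where 7.81% were called and 3.31% upward. By the rule of an unadjusted p under 0.05 and a fold of at least 1.2, 5 member probes were higher and 2 lower in TPC1, where 13.3% and 13.8% of all probes were. By that rule 1 was higher and 1 lower in BCPAP (9.73% and 8.88% of all probes), and 2 were higher and 2 lower in K1 (6.96% and 7.99%), and the lower ones were probes of BIRC5. The Y15 arrays lay below both untreated arrays on both BIRC5 probes in TPC1 and BCPAP, as they did for 34.9% of all probes in TPC1 and 25% in BCPAP. They lay above them on all 3 DIABLO probes in each line, as for 33.5%, 30.1% and 24.4% of all probes in TPC1, BCPAP and K1. Median centring left BIRC5 probe 1 as the single member probe called in TPC1, so the split there became 0 higher and 1 lower.

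**Figure D3:**
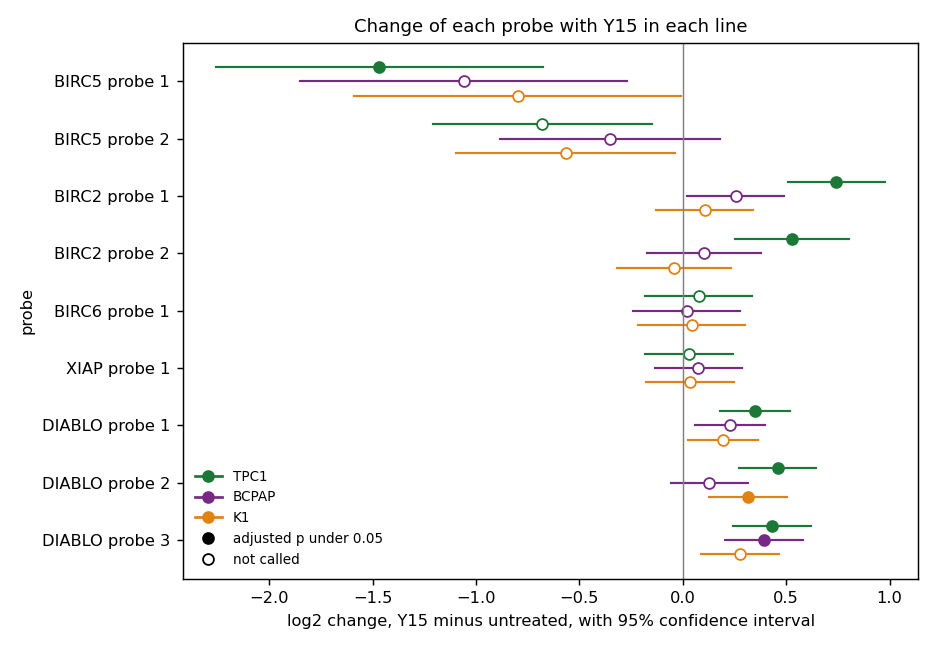
Log2 change of each member probe, Y15 minus untreated. Each row on the vertical axis is a probe, the horizontal axis is the log2 change with its 95% confidence interval from limma over 12 arrays, and colours are the lines; filled points passed an adjusted p of 0.05. The BIRC5 changes, -1.47 to -0.35, lay left of 0 with the widest intervals, the BIRC6 and XIAP points lay at 0, and the DIABLO points lay right of it. With median centring DIABLO probe 1 turned below 0 in TPC1 and K1 but stayed above the median of all tested probes.

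Survivin was then set against each of the other 4 genes on the same arrays. The within-array log2 difference of BIRC5 probe 1 and the brightest probe of the other gene was compared between Y15 and untreated arrays, with the labels permuted within each line (216 arrangements, exact two-sided test, smallest possible p 0.00926). The BIRC5 change minus that of BIRC2 was -2.21 (TPC1), -1.32 (BCPAP) and -0.90 (K1). The mean over the lines was -1.48 (exact p = 0.00926, adjusted over 4 pairs 0.0185). Against DIABLO the differences were -1.82, -1.29 and -0.99 in TPC1, BCPAP and K1, with a mean of -1.37 (exact p = 0.00926, adjusted 0.0185). Against BIRC6 they were -1.54, -1.08 and -0.84, with a mean of -1.15 (exact p = 0.0185, adjusted 0.0247). Against XIAP they were -1.50, -1.13 and -0.83, with a mean of -1.15 (exact p = 0.0278, adjusted 0.0278). Survivin thus had the lower change against each of the 4 genes in all 3 lines, and the K1 values rested on replicate 1. The 4 tests share the same BIRC5 values. XIAP and BIRC6 were measured close to background, where a change is understated, so the differences against them mostly repeat the change of BIRC5 itself. With BIRC5 probe 2 the means were -0.90, -0.79, -0.58 and -0.58 against BIRC2, DIABLO, BIRC6 and XIAP (exact p = 0.00926, 0.00926, 0.0185 and 0.0185). Without any single array the means of probe 1 ran from -1.71 to -0.85 over the 4 genes, with exact p of at most 0.0463.

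**Figure D4:**
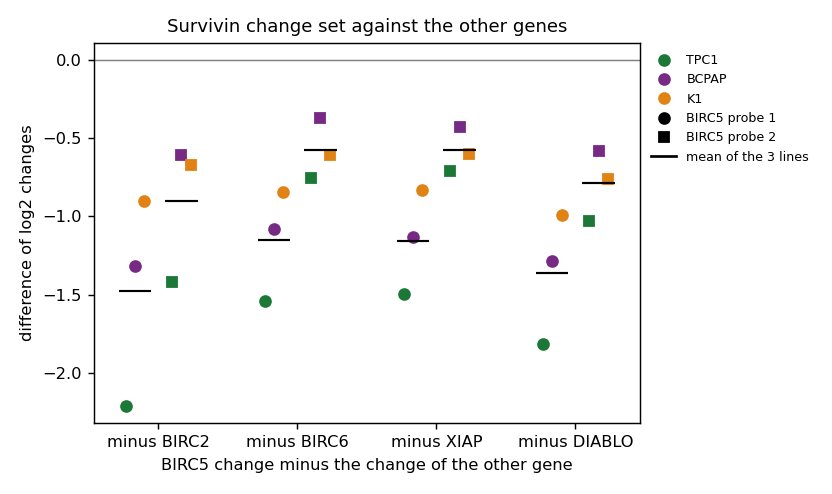
Change of BIRC5 with Y15 minus the change of each other gene. The vertical axis is the difference of the log2 changes, the horizontal axis the gene subtracted; circles use BIRC5 probe 1 and squares probe 2, colours are the lines, and black lines the mean over the 3 lines. All points lay below 0, and for probe 1 TPC1 was the lowest and K1 the highest against each gene.

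Without Y15, a difference between the lines was called for 6 of the 9 member probes (F test of limma), those of BIRC2, BIRC6 and DIABLO, and for 56.1% of all probes. BIRC2 probe 1 was highest in K1 (10.16 and 9.94), lower in TPC1 (9.45 and 9.53) and lowest in BCPAP (9.26 and 9.12). Each step of that order was called, TPC1 minus K1 at -0.56 (adjusted p = 0.00171) and TPC1 minus BCPAP at 0.30 (adjusted p = 0.0385), contrasts called for 31.5% and 46.5% of all probes. On probe 2, TPC1 and BCPAP could not be told apart (0.19, adjusted p = 0.244). DIABLO was highest in BCPAP, where TPC1 minus BCPAP was -0.40, -0.80 and -0.57 on probes 1 to 3 (adjusted p = 0.00119, 1.25e-05 and 0.000198). On probe 3 BCPAP and K1 did not differ beyond their spread (0.15, adjusted p = 0.19, a contrast called for 41.6% of all probes). With median centring the untreated difference was lost for DIABLO probes 1 and 2 (adjusted p = 0.323 and 0.784). BIRC6 was higher in TPC1 (7.73 and 7.83) than in BCPAP (7.24 and 6.90), a called difference of 0.71 (adjusted p = 0.000401) in which only 1 of the 2 BCPAP arrays was above background, so its size is not settled. For survivin probe 1, untreated TPC1 lay 0.66 below BCPAP (adjusted p = 0.16) and 0.70 below K1 (adjusted p = 0.173). This difference between lines was called (adjusted p = 7.16e-07, F test) on leaving out either K1 array with Y15, and with array weights (adjusted p = 0.00267). For XIAP no difference between the untreated lines was called (adjusted p = 0.424).

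Several of survivin's partners and of other genes of mitosis were lower on the same arrays. Of 16 such genes, 9 were called lower in TPC1, 4 in BCPAP and 2 in K1, and at an unadjusted p under 0.05 these counts were 12, 12 and 10. None was called higher, and none was higher at an unadjusted p under 0.05. At the adjusted threshold 13.2%, 6.05% and 4.5% of all probes were called lower in TPC1, BCPAP and K1. No share of all probes was counted at the unadjusted threshold alone, or for the omissions and other settings named below, so those counts stand without a reference. The 16 genes had median changes of -0.86 (TPC1), -0.69 (BCPAP) and -0.59 (K1), against a median of all probes between -0.0017 and 0.013. In K1 that median was -1.21 for replicate 1 with Y15 and -0.0013 for replicate 2. Leaving out single arrays moved the counts to between 2 and 15 (TPC1), 0 and 14 (BCPAP), and 0 and 15 (K1), the 15 in K1 being without replicate 2 with Y15. With median centring the counts were 7, 0 and 0 in TPC1, BCPAP and K1, with neqc 9, 4 and 1, and with each line alone 16, 14 and 0. Within the chromosomal passenger complex, CDCA8 (borealin) was called lower in TPC1 (-0.87, adjusted p = 0.0259), a call lost without any single TPC1 array (adjusted p from 0.09 to 0.134) and with median centring (adjusted p = 0.0599). For INCENP, the scaffold of the complex, the BCPAP change of -0.43 (adjusted p = 0.0391) and the K1 change of -0.59 (adjusted p = 0.014) were called. The BCPAP call of INCENP was lost without any of 10 of the 12 arrays (adjusted p up to 0.178), with neqc (adjusted p = 0.0973), the replicate block (0.0723) or no filter on dim probes (0.0527), and with median centring the change was -0.12 (0.689). Its K1 change was -0.36 without replicate 1 with Y15 (adjusted p = 0.0274) and -0.83 without replicate 2 with Y15 (adjusted p = 9.03e-06). That K1 call was lost without untreated replicate 1 (adjusted p = 0.127) or 2 (0.0575), with median centring (0.108) and with the line alone (0.255). The kinase AURKB had changes of -0.64, -0.12 and -0.60 in TPC1, BCPAP and K1, and none was called. Among the rest, KIF20A, a kinesin of cytokinesis, had called changes of -2.20 in both TPC1 (adjusted p = 0.00298) and BCPAP (adjusted p = 0.00716). CDC20, an activator of the anaphase-promoting complex, changed by -1.43, TOP2A, topoisomerase II alpha, by -1.67 and AURKA, the Aurora A kinase, by -1.54 in TPC1 (adjusted p = 0.0245, 0.00788 and 0.00751). Leaving out single TPC1 arrays ended the TPC1 calls of CDC20 (any of the 4, adjusted p up to 0.13), TOP2A (2 of them, up to 0.0587) and AURKA (3 of them, up to 0.0545). The BCPAP call of KIF20A was lost without either BCPAP array with Y15 (adjusted p = 0.0518 and 0.0501) and with median centring (-1.72, adjusted p = 0.0879).

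The starts of CDCA8 and INCENP, the partners that were called, are shown because the letters of mitotic promoters can be seen in them. The CHR letters TTTGAA or TTCGAA were found in windows of 9 of the 13 mitotic genes with an entry, and in windows of 19.5% of all genes. CCAAT, or ATTGG on the other strand, was found in all 13, and in windows of 39.7% of all genes. The CDCA8 window lies on the plus strand at chr1:37692266-37692565 and has TTTGAA from base -23 to base -18, next to an ATTGG that shares its last base. The INCENP window lies on the plus strand at chr11:62123761-62124060 and has TTTGAA from base -10 to base -5. Capitals mark these letters.
CDCA8: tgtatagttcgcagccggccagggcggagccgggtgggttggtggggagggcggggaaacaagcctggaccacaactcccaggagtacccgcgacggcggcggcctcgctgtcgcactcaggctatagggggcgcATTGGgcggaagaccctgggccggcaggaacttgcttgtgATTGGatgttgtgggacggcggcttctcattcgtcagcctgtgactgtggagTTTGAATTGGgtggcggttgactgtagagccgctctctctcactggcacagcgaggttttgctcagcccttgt
INCENP: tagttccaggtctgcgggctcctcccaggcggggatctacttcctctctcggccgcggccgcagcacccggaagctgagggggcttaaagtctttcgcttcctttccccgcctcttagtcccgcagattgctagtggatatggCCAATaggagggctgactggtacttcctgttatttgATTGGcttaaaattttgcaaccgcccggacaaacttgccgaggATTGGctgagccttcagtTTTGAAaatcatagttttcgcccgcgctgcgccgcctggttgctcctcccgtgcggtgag

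The genes whose pattern was most like that of survivin included regulators of mitosis, and their order changed without the K1 arrays. Over the 12 arrays, with the mean of each line subtracted, AURKA had the highest correlation with BIRC5 probe 1 among 12377 genes (Pearson's r = 0.997, Spearman's rho = 0.972). DLGAP5, a spindle protein, followed with r = 0.995 (rho = 0.958), then CDC20 (0.991), BUB1, a spindle checkpoint kinase (0.991), SGO2, the shugoshin that guards cohesion (0.990), GPSM2 (0.990), RACGAP1 (0.989) and POLA1 (0.989). These arrays share the contrast of Y15 with untreated cells and the K1 array that stood apart. On the 8 arrays of TPC1 and BCPAP, 2 of these 8 genes, RACGAP1 and DLGAP5, were again among the first 8, and AURKA stood at place 10. GPSM2 stood at place 29, SGO2 at 50, BUB1 at 51, POLA1 at 58 and CDC20 at 67. There CRIM1 had the highest correlation (r = 0.998), and TROAP, CENPA, CLCC1, EFEMP2 and ADORA1 were also among the first 8. Of the members, DIABLO ran most opposite to survivin (r = -0.915, rho = -0.944), followed by BIRC2 (r = -0.617, rho = -0.732) and XIAP (r = -0.470, rho = -0.406), while BIRC6 had r = -0.022 (rho = -0.147). From the highest r of the 12377 genes, DIABLO stood at place 12085, BIRC2 at 9914, XIAP at 8912 and BIRC6 at 6265. XIAP and BIRC6 were measured close to background, and the members were not ranked without the K1 arrays.

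Of the other members, XIAP and DIABLO act on the pathway of caspases. Of 9 antagonists, caspases and apoptosome genes, 7 were tested, and 1 was called higher and 2 lower in TPC1, 1 higher in BCPAP and 1 lower in K1, where 25.7%, 13.4% and 7.81% of all probes were called in TPC1, BCPAP and K1. On leaving out single arrays 0 to 3 were called in TPC1, 0 to 2 in BCPAP and 0 or 1 in K1, and with median centring 0 were higher and 2 lower in TPC1. Their median changes were -0.02, 0.11 and -0.10 in TPC1, BCPAP and K1. APAF1, the core of the apoptosome, fell by 0.50 in TPC1 (adjusted p = 0.00833), and CASP8, the initiator caspase of death receptors, fell by 0.42 in TPC1 (adjusted p = 0.00934) and by 0.36 in K1 (adjusted p = 0.047). The TPC1 calls of both were lost without untreated replicate 2 or replicate 2 with Y15 of TPC1 (adjusted p up to 0.0845 for APAF1 and 0.0881 for CASP8). The K1 call of CASP8 was lost without any of 9 of the 12 arrays, among them replicate 1 with Y15 of K1 (-0.27, adjusted p = 0.186), and was kept without replicate 2 with Y15 (-0.46, adjusted p = 0.00576). It was also lost with median centring, neqc, no filter on dim probes, the line alone, array weights and the replicate block (adjusted p from 0.0571 to 0.266). XAF1, an antagonist of XIAP, rose by 0.45 in BCPAP (adjusted p = 0.0125), and CYCS, cytochrome c and the other gene called higher, rose by 0.31 in TPC1 (adjusted p = 0.0384). The XAF1 call was lost without untreated replicate 2 or replicate 1 with Y15 of BCPAP (adjusted p up to 0.113) and with neqc (0.0662). The CYCS call was lost without any of 8 of the 12 arrays (adjusted p up to 0.201), with neqc (0.143) and the replicate block (0.0763), and with median centring the change was 0.04 (0.833). CASP9, the initiator caspase that XIAP inhibits, had changes of 0.10, 0.13 and 0.16 and was not called.

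Of 16 TNF receptor and NF-κB genes linked to the cIAPs, 14 were tested. In TPC1, where BIRC2 was higher, 7 were called higher and 1 lower, and in BCPAP 3 were called higher. In K1 limma called none, and 1 was higher at an unadjusted p under 0.05, for which no share of all probes was counted. Of all probes 12.4%, 7.4% and 3.31% were called higher in TPC1, BCPAP and K1. Without K1 replicate 2 with Y15, 6 were called higher in K1, and without BCPAP replicate 1 with Y15 none in BCPAP. Median centring gave 4 higher and 2 lower calls among them in TPC1, and neqc 1 higher call in BCPAP. Their median changes were 0.31, 0.11 and 0.13 in TPC1, BCPAP and K1. TNFAIP3 (A20), a ubiquitin-editing brake on NF-κB, rose by 1.52 in TPC1 (adjusted p = 6.26e-05). TRAF1, an adaptor that binds the cIAPs, had 8.29 and 8.30 with Y15 in TPC1, against 6.77 and 6.83 untreated, where it was not above background on either array. Set against the lowest signal of a probe above background on those arrays, TRAF1 was at least 2.72-fold higher with Y15 (adjusted p = 1.82e-06), and it was above background on both arrays of TPC1 and K1 with Y15 and of no other group. NFKB2, the precursor of p52, rose by 0.95 in TPC1 (adjusted p = 0.000143) and 0.64 in BCPAP (adjusted p = 0.00513), and its partner RELB by 1.02 (adjusted p = 0.000772) and 0.56 (adjusted p = 0.0417) in those lines. The BCPAP call of RELB was lost without any of 10 of the 12 arrays (adjusted p up to 0.187), with neqc (0.0533), no filter on dim probes (0.0619) and the replicate block (0.054), and that of NFKB2 without replicate 1 with Y15 of BCPAP (0.0506). TNFRSF1A, the TNF receptor, was the gene that was lower in TPC1 (-0.47, adjusted p = 0.00258), a gene named after its value was seen. The other BIR genes NAIP, BIRC7 and BIRC8 had 8 probes, each above background on at most 1 of the 12 arrays, and none was tested.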

How the data were processed

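Total RNA of TPC1, BCPAP and K1 cells, with 10 µM Y15 or untreated for 24 h, was hybridized to Illumina bead arrays, 2 per group and 12 in all. The authors deposited, from GenomeStudio, probe signal intensities, a detection p-value beside each, and a table of log2 values after quantile normalization. The deposited intensities were converted here to log2 and quantile normalized, which matched the deposited log2 table to 5e-09. Of 47311 probes with values, 30109 had 1 gene symbol in the platform annotation, 8 several and 17194 none, and 12 rows held no values. The filter kept 21600 probes with a detection p under 0.05 on each array of some group. These were fitted with limma 3.58.1 in R 4.3.3 over all 12 arrays, with 6 group means, eBayes and Benjamini-Hochberg adjustment. The procedure was also run on simulated data in which a probe had the same spread in every group. The K1 duplicates with Y15 were less alike than that, so the simulation does not bear on calls that hang on 1 of them. Every member probe was reported. Of each related list at most 4 genes were named by the largest mean change over the lines, beside survivin's complex partners and the genes behind a count of 1. Lines were compared by F tests and contrasts, and survivin with the other members by exact permutation within lines. The members and lists were chosen with earlier results of these data known. Alternatives were median centring, neqc, filters, the brightest probe of a gene, array weights, eBayes with trend, the line alone, the replicate block and leaving out each array. The number of arrays limits the precision.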

Additional observations from a re-analysis of the deposited data

Results flagged for a closer look

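A difference of the Y15 change between the 3 lines was called by the F test of limma, adjusted over all probes, for 1 member probe. TRAF1 set apart, it was also called for 3 of the named NF-κB genes. BIRC2 probe 1 had an adjusted p of 0.0311, with changes of 0.74, 0.26 and 0.11 in TPC1, BCPAP and K1. That call was lost with median centring, neqc and the replicate block (F test, adjusted p = 0.18, 0.104 and 0.0926) and on leaving out some single arrays. TRAF1 had an adjusted p of 0.000129, but it was above background on both arrays of TPC1 and K1 with Y15 alone, so in no line were all 4 arrays above background, and no difference between lines is drawn from this value. TNFAIP3 had an adjusted p of 0.00562, with changes of 1.52, 0.14 and 0.43. NFKB2 had an adjusted p of 0.0267, with changes of 0.95, 0.64 and 0.19. TNFRSF1A had an adjusted p of 0.0369, with changes of -0.47, 0.04 and -0.05. NFKB1, which was not among the named genes, had an adjusted p of 0.0439 in the F test. The NF-κB genes were named by the size of their changes in these data, or after the value was seen (TNFRSF1A), so their tests are not independent support. The test called 14.8% of all probes. With 2 arrays in a group, single arrays that stood apart from their group were not tested for.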

How the results depend on the processing

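The fall of BIRC5 probe 1 in TPC1 was called under each setting over all arrays, and without single TPC1 arrays it was not, with changes over all omissions from -1.52 to -1.41. In BCPAP its change of -1.06 was called with the line alone (adjusted p = 8.58e-05), array weights (0.00751), an eBayes trend (0.049) and only the TPC1 and BCPAP arrays (7.52e-07), and omissions gave -1.11 to -1.01. In K1 omissions gave -1.64 to 0.039. Of the 9 member probes, 6 were called in TPC1, against 1 with median centring and 3 of 5 with the brightest probe of each gene. In BCPAP the 1 call became 2 with median centring, the line alone, array weights, an eBayes trend, or the methods' rule (unadjusted p under 0.05 and a fold of at least 1.2), 4 with only the TPC1 and BCPAP arrays, 0 with the brightest probes, and 0 to 5 on omissions. In K1 the 1 call became 0 with median centring, neqc, the brightest probes, the line alone, array weights, an eBayes trend or the replicate block, 4 by the methods' rule, and 0 to 5 on omissions. A difference of the Y15 change between lines, called for 1 member probe, was called for 0 with median centring or neqc, 2 with array weights and 0 to 4 on omissions. For the untreated levels 6 calls became 3 with the brightest probes. Median centring turned DIABLO probe 1 to -0.11 in TPC1 and -0.056 in K1, where the median of all tested probes itself was -0.161 and -0.0795. It also turned 5 changes that were not called, BIRC6 to -0.27 and -0.078, XIAP to -0.13 and -0.063, in TPC1 and K1, and BIRC2 probe 1 in K1 to -0.13. On omissions the uncalled changes that turned were BIRC2 probe 1 in K1 (-0.046 to 0.26), BIRC2 probe 2 in BCPAP (-0.072 to 0.28) and K1 (-0.16 to 0.076), BIRC6 in TPC1 (-0.014 to 0.17), BCPAP (-0.15 to 0.19) and K1 (-0.053 to 0.14), and XIAP in TPC1 (-0.072 to 0.13), BCPAP (-0.042 to 0.19) and K1 (-0.044 to 0.115). The causes were not tested. Same-numbered samples deviated together with correlations across probes of 0.148, -0.160 and 0.0021 in TPC1, BCPAP and K1. Each value rests on a single replicate difference per group, so it cannot settle whether the numbers pair the samples. With the replicate block 5046, 2269 and 1203 probes were called in TPC1, BCPAP and K1, against 5542, 2905 and 1686 without it, and BIRC5 probe 1 had adjusted p of 0.00744, 0.0531 and 0.155 in those lines. With it the TPC1 fall of BIRC5 probe 2 was called (adjusted p = 0.0142) and the F test was called for BIRC2 probe 2 (0.0278) in place of probe 1 (0.0926). Signal near background limits BIRC5 probe 2, DIABLO probe 3, BIRC6 and XIAP.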
